A study of Mus musculus with 2 samples.

Results

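The genes described here encode the laminin chains, the nidogens and perlecan, the non-collagen core of the basement membrane, and they were followed across the cell classes of the mouse aorta. They are the laminin alpha chains Lama2, Lama3, Lama4 and Lama5, the beta chains Lamb1 and Lamb2, the gamma chain Lamc1, the perlecan gene Hspg2, and the nidogen genes Nid1 and Nid2. They were chosen by symbol, each symbol matched 1 feature, and they make up 10 of the 54754 features counted. The tissue was ascending aorta and aortic arch of Wnt1-Cre/Rosa26-mTmG mice, taken as nuclei and sequenced by a droplet method. The groups are Female and Male, each a pool of mice deposited as 1 set of counts and treated here as 1 library, and every animal carried both alleles. Wnt1-Cre is active in the neural crest, and the Rosa26-mTmG allele makes membrane tdTomato until Cre switches the cell and its descendants to membrane GFP. The age of the mice is not given in the sources used here. Each pool was split into technical replicates that the deposited barcodes do not tell apart, so 1 library per sex is the unit throughout and no sex difference was tested.

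Laminins are cross-shaped trimers of 1 alpha, 1 beta and 1 gamma chain that assemble in the cell before secretion. The alpha chain carries the sites for integrins and dystroglycan, and the trimers polymerise at the cell surface into the sheet on which a basement membrane forms. Nidogens bridge laminin gamma 1 and type IV collagen, and perlecan is a large heparan sulfate proteoglycan that binds to both. In arteries, laminins containing alpha 4 and alpha 5 underlie the endothelium and surround smooth muscle cells, and alpha 2 is the main chain of skeletal muscle, heart and peripheral nerve basement membrane.

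In the GRCm38 GENCODE annotation Lama2 lies at chr10:26980036-27619758 on the minus strand and spans 639.7 kb, and Lamb2 at chr9:108479736-108490530 spans 10.8 kb. The other members are Lama4 at chr10:38965515-39110188, Lama5 at chr2:180176373-180225859, Lamb1 at chr12:31265234-31329644, Lamc1 at chr1:153218922-153332786, Hspg2 at chr4:137468769-137570630, Nid1 at chr13:13437551-13512269 and Nid2 at chr14:19751265-19811787. Whether intronic reads or strand were used in counting is not given in the sources used here. Nid2 overlaps the protein-coding gene Rtraf on the other strand, so its counts are uncertain where strand was not used. Lama2 overlaps 6 non-coding models, Lama3 4, Lamc1 2 and Nid1, Lama5 and Hspg2 1 each.

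Promoter sequence was at hand for 6 members, from RefSeq on GRCm38.p6. Hspg2 and Lama5, whose highest class was muscle, and Nid1 and Lama2, whose highest class was fibroblasts, are printed as a sample of both, and among these 4 Lama2 stands alone with no CpG. Each is the 200 bases that end 50 bases before the start of transcription, 5′ to 3′ on the gene's strand, with capitals for the GC box GGGCGG or its reverse complement.
Hspg2, chr4:137468553-137468752, plus strand: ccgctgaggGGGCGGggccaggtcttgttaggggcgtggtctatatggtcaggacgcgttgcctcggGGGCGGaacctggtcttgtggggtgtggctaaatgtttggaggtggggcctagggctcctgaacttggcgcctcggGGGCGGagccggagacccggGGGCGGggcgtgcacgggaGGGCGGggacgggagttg
Lama5, chr2:180225910-180226109, minus strand: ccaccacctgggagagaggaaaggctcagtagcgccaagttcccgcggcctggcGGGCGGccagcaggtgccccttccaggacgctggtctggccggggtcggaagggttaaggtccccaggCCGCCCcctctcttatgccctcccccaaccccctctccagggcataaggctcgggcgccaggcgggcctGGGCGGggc
Nid1, chr13:13437352-13437551, plus strand: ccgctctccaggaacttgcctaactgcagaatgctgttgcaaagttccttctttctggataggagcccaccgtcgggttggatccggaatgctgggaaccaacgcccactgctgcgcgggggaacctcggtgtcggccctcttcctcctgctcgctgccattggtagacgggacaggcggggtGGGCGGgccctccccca
Lama2, chr10:27616993-27617192, minus strand: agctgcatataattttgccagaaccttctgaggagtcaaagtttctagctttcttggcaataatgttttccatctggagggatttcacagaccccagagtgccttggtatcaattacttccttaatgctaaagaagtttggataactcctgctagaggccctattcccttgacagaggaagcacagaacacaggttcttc
The GC box, the letters GGGCGG on either strand with overlapping matches counted, occurred 5 times in the Hspg2 window, 3 times in Lama5, 2 times in Lamb1 and 1 time in Nid1. It had 0 matches in Lama2 and in Lamb2, and 24.6% of 32851 promoter windows of the same length hold at least 1. The CpG count was 17 in Hspg2, 13 in Lama5, 13 in Nid1, 11 in Lamb1 and 2 in Lamb2. The Lama2 window had 0 CpG, while 89.1% of all windows hold 1 or more. RefSeq starts Lama2 at 27616942, and 1 GENCODE transcript of the gene starts further upstream at 27619758, so this window belongs to the RefSeq start only. The Lamb2 and Lamb1 windows run past the GENCODE starts at 108479736 and 31265234, so part of each lies inside a GENCODE transcript. The TATA box TATAAA, the AP-1 site TGANTCA and the CArG box, each on both strands, had no match in any of the 6 windows. They occur in 9.14%, 5.57% and 1.16% of all windows. A match or its absence describes these letters only.

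The libraries held 18863 Female and 20653 Male nuclei with at least 300 genes, from 79289188 and 77986363 unique molecular identifiers (UMIs, counted RNA molecules), and 4286 barcode sequences occurred in both. Each nucleus was put in the class with the largest summed UMI count of 3 markers, 3 UMIs or more, and ties were left out. The classes were endothelium (5166 and 6766 nuclei in Female and Male), fibroblast (2181 and 2477), fat (1475 and 1334), macrophage (481 and 696) and muscle (8124 and 7656). Markers that the rule did not use were highest in their own class in both libraries: Cdh5, Tie1, Egfl7 and Tek together had 1933 and 1848 CPM (UMIs of a gene per 1000000 UMIs of the group) in endothelium and Tagln, Cnn1, Myocd and Mylk 3619 and 4356 CPM in muscle. The margin was narrower for Lum, Col1a1, Col1a2 and Col3a1, with 1808 and 1751 CPM in fibroblasts and 795 and 627 CPM in muscle. The classes were not free of each other's RNA. The fibroblast markers of the rule summed to 178 and 235 CPM in endothelium, 24.0 and 60.9 in fat and 102 and 57.5 in macrophages, against 3034 and 3396 in fibroblasts. Nuclei called doublets by scrublet, 4.99% and 7.28% of the libraries, were kept and left out in an alternative. Classes were compared with muscle on UMIs summed per class and library, with edgeR's quasi-likelihood test, library as a block and Benjamini-Hochberg adjustment over all 19475 genes tested. Those p-values measure how class differences vary between 2 pools, which also differ in sex, with the spread pooled over all classes. Fewer nuclei with a transcript and fewer transcripts per nucleus cannot be told apart in such sums.

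The alpha chains divided between the classes. Lama2, the alpha chain of merosin, was highest in fibroblasts, with 1832 and 1641 CPM in Female and Male fibroblasts, against 412 and 352 CPM in muscle (log2 fold 2.06, SE 0.35, adjusted p 9.7e-04). The other classes had less than muscle, with 153 and 66.3 CPM in macrophages, 106 and 91.5 in endothelium and 19.4 and 43.6 in fat, and each of these was called lower than muscle (log2 folds -2.01, -2.04 and -3.72). Fibroblast markers were present in these classes too. In nuclei whose largest marker sum was at least 4 times the next, Lama2 was 53.6 and 40.0 CPM in endothelium, 10.7 and 17.2 in fat and 95.3 and 27.1 in macrophages, while fibroblasts had 1767 and 1656. The pericyte markers Rgs5, Abcc9 and Kcnj8 summed to 678 and 566 CPM in fibroblasts and 423 and 365 CPM in muscle. Elsewhere they summed to at most 65.2 CPM, and their part in the Lama2 levels was not tested.

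Lama4, the short alpha chain of vessel and fat basement membranes, had its highest levels in fat and in muscle. It had 974 and 953 CPM in fat and 813 and 796 CPM in muscle, a difference that was not called (log2 fold 0.13, SE 0.15, adjusted p 0.47). Fibroblasts had 383 and 387 CPM and endothelium 179 and 216, and the macrophage level of 57.8 and 91.3 CPM was 21.9 and 37.4 CPM in nuclei whose largest marker sum was at least 4 times the next. Fibroblasts, endothelium and macrophages were each lower than muscle in edgeR, with log2 folds of -1.20, -2.12 and -3.58 (adjusted p 1.7e-04, 2.4e-06 and 1.2e-07).

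Lama5, the long alpha chain found under arterial endothelium, had its highest class level in muscle. Its levels were 64.0 and 88.4 CPM in endothelium, 13.4 and 22.4 in fibroblasts, 7.93 and 9.94 in fat and 14.8 and 14.9 in macrophages, against 157 and 178 CPM in muscle. Endothelium was lower than muscle (log2 fold -1.24, SE 0.13, adjusted p 2.4e-05), and the other classes were lower still, with log2 folds between -4.37 in fat and -3.38 in fibroblasts. Lama3, a chain best known from epithelia, at chr18:12333819-12583013, was highest in endothelium. It had 51.7 and 48.5 CPM in endothelium, against 4.57 and 4.21 CPM in muscle (log2 fold 3.44, SE 0.36, adjusted p 2.6e-05), and no value over 14.1 CPM in any other class and library. That value, in Female macrophages, was 21 UMIs, and Male macrophages had 3 UMIs. No endothelial nucleus held more than 8 Lama3 UMIs, and 625 of 5166 Female and 766 of 6766 Male endothelial nuclei held any.

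The beta chains were spread differently over the classes. Lamb1, the beta chain of the more widespread laminins, had 135 and 242 CPM in fat and 77.9 and 83.5 CPM in fibroblasts, against 5.18 and 6.79 CPM in muscle. Both were called higher than muscle (log2 fold 4.80, SE 0.21, adjusted p 2.7e-08 for fat, and log2 fold 3.64, SE 0.20, adjusted p 3.4e-07 for fibroblasts). Endothelium had 5.93 and 10.9 CPM and macrophages 2.02 and 7.03 CPM, and neither was called (log2 folds 0.38 and -0.48). The muscle level itself was 2.61 and 2.25 CPM under the 4-times rule described above, which took the log2 folds to 6.05 in fat and 4.99 in fibroblasts. In nuclei whose largest marker sum was at least 4 times the next, Lamb1 was called higher in endothelium (log2 fold 0.80, edgeR adjusted p 0.034). Lamb2, the beta chain of synaptic, renal and arterial basement membrane, was near one level in endothelium (145 and 149 CPM), fibroblasts (143 and 148 CPM) and muscle (149 and 146 CPM). The log2 fold against muscle was -0.09 in endothelium (SE 0.14, adjusted p 0.64) and -0.15 in fibroblasts (SE 0.14, adjusted p 0.44). Fat, at 33.2 and 47.1 CPM, and macrophages, at 36.3 and 26.8 CPM, were lower than muscle (log2 folds -2.02 and -2.41).

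Lamc1, the gamma chain of most laminins, was detected in every class. It had 439 and 533 CPM in fibroblasts, against 223 and 221 CPM in muscle, and was called higher there (log2 fold 0.99, SE 0.13, adjusted p 1.5e-04). Fat had 221 and 282 CPM and did not differ from muscle past the threshold (log2 fold 0.04, SE 0.13, adjusted p 0.79). Endothelium, at 89.4 and 100.04 CPM, and macrophages, at 65.9 and 56.2 CPM, were lower (log2 folds -1.32 and -2.04).

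Perlecan and the nidogens, which link the laminin sheet to collagen, had different orders of classes. Hspg2 was highest in muscle, with 234 and 246 CPM in endothelium, 152 and 162 in fibroblasts, 53.5 and 53.4 in fat and 48.4 and 37.3 in macrophages, against 403 and 446 CPM in muscle. All were lower than muscle, with log2 folds of -0.91, -1.56, -3.12 and -3.49 in that order (edgeR adjusted p 1.4e-04 in endothelium). Nid1, above Nid2 per kb of exon in every class but macrophages, had 436 and 521 CPM in fibroblasts and 50.9 and 62.0 in endothelium, against 17.8 and 20.7 CPM in muscle. It was called higher in fibroblasts (log2 fold 4.50, SE 0.25, adjusted p 4.1e-07) and in endothelium (log2 fold 1.46, SE 0.23, adjusted p 5.0e-04), and fat (10.1 and 28.7 CPM) and macrophages (8.74 and 14.1 CPM) were not called. Without doublets the macrophage log2 fold was -2.06 and was called (edgeR adjusted p 0.011), against -0.92 with them (adjusted p 0.067).

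Nid2 followed another order. Macrophages had 62.5 and 55.3 CPM and fibroblasts 22.0 and 26.4 CPM, against 7.42 and 8.46 CPM in muscle, and both were called higher (log2 fold 2.73, SE 0.17, adjusted p 4.4e-07 for macrophages, and log2 fold 1.48, SE 0.15, adjusted p 2.9e-05 for fibroblasts). These are small counts: 93 Female and 126 Male UMIs in macrophages, spread over 62 and 97 nuclei with at most 4 in 1 nucleus. The macrophage value was 68.3 and 59.0 CPM in nuclei whose largest marker sum was at least 4 times the next. The B cell gene Bank1 had 1273 and 1305 UMIs in the macrophage class, while the defining B cell genes Pax5 and Ms4a1 had 0 or 1 UMI each. Nid2 was 61.0 and 63.3 CPM in macrophages with Bank1 UMIs and 68.0 and 39.4 CPM in those without.

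**Figure D1:**
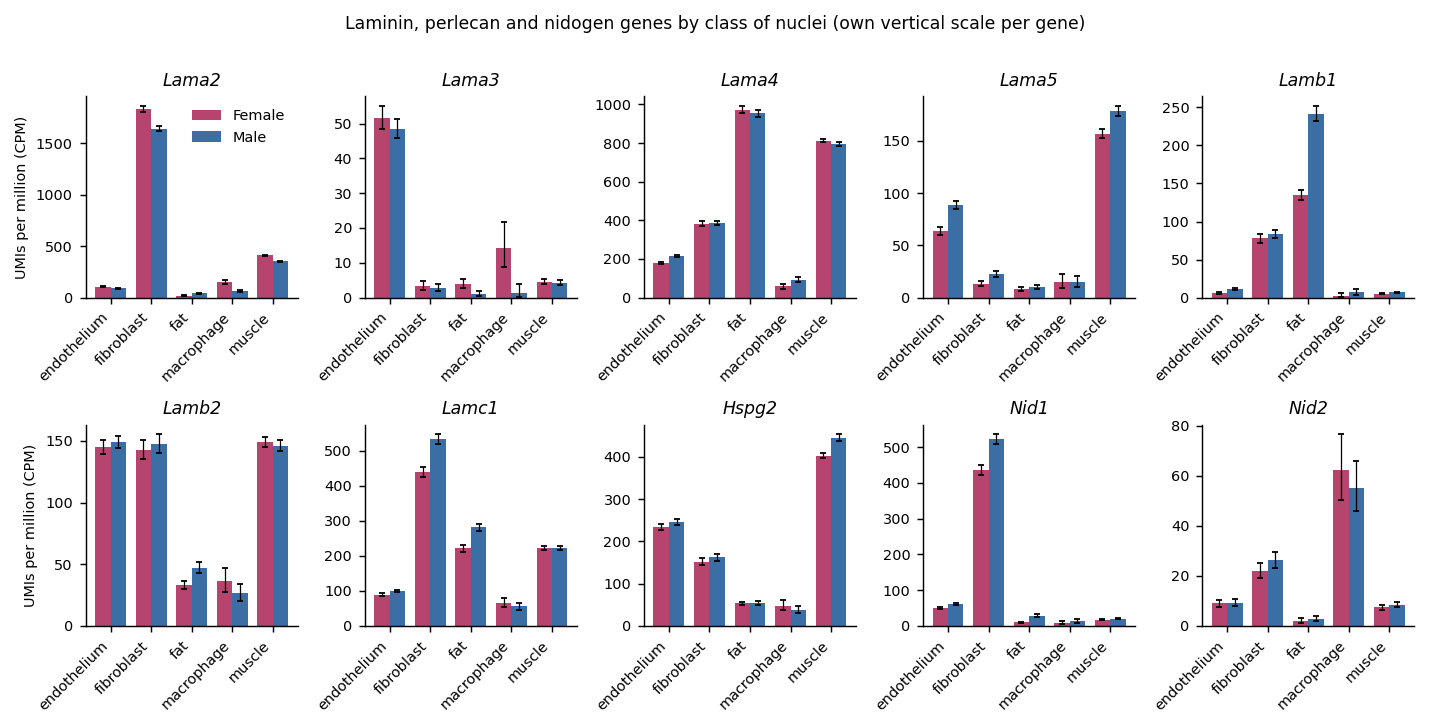
CPM of each member (vertical axis, its own linear scale from 0 per gene) in the Female (left bar) and Male (right bar) library of each class, with 95% Poisson intervals that cover counting error only. Lama2 and Nid1 peaked in fibroblasts, Lama3 in endothelium, Lamb1 in fat, Nid2 in macrophages, and Lama5 and Hspg2 in muscle.

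Several of these folds were larger in size under stricter rules for nuclei, with the same direction. Under the 4-times rule the Lama2 log2 fold against muscle was -3.08 in endothelium, -4.89 in fat and -2.88 in macrophages, and without doublets it was -3.09, -5.30 and -3.81. Without the Male library the fat fold of Lama2 was -4.49. In fibroblasts the Nid1 fold was 5.22 under the rule and 5.23 without doublets, and the Lamb1 fold without doublets was 4.87 in fibroblasts and 6.06 in fat. In macrophages Lama4 had -4.96, Lama5 -4.63 and Hspg2 -4.46 under the rule, against -5.13, -4.73 and -4.55 without doublets, where Lamb2 had -3.05. The list holds only folds that were further from 0 than the fold given first, and each tested one was called in edgeR.

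Counted against muscle, 2 of 10 members were higher and 5 lower in endothelium, where 22.9% and 21.9% of all genes tested were called in those directions. Fibroblasts had 5 higher and 3 lower, beside 20.2% and 17.9% of all genes. Fat had 1 higher, Lamb1, and 5 lower, beside 30.6% and 31.7%. Macrophages had 1 higher, Nid2, and 6 lower, beside 20.1% and 23.2%. The members' share of lower calls was above that of all genes in each class. Their share of higher calls was above it in fibroblasts, near it in endothelium and below it in fat and macrophages, and with 10 genes this is a description. The median log2 fold over the members was -0.50 in endothelium, 0.42 in fibroblasts, -1.41 in fat and -2.02 in macrophages, where the medians over all genes were -0.0005, -0.012, -0.054 and -0.14.

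The order of the classes was clear at the top for most members. In the same edgeR fit, 61.0% of all genes were called between fibroblasts and fat, 64.4% between endothelium and fat, 52.7% between fat and macrophages, 40.7% between fibroblasts and macrophages, 38.4% between endothelium and fibroblasts and 38.1% between endothelium and macrophages. The highest class was above the next past the threshold for Lama2, Lama3, Lama5, Lamb1, Lamc1, Hspg2, Nid1 and Nid2. It was not for Lama4 (fat above muscle, adjusted p 0.47) or for Lamb2 (muscle above endothelium, adjusted p 0.64). Fat and muscle were not separated for Lamc1 (adjusted p 0.79) or Nid1 (adjusted p 0.48), nor fat and macrophages for Hspg2 or Lamb2. At the low end, Lama2 in macrophages and endothelium, Lama5 in fibroblasts and macrophages, and Lamb1 in endothelium, muscle and macrophages overlapped between libraries and were not separated. Lama3 was not separated among the 4 classes below endothelium in any neighbouring pair.

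Between genes, levels were compared as mean CPM of the libraries per kb of merged exon. In fibroblasts Lama2 led with 106 CPM per kb, ahead of Nid1 with 69.0 and Lamc1 with 58.7. In muscle Lama4 led with 66.7, followed by Hspg2 with 29.7, Lamc1 with 26.9, Lamb2 with 24.3, Lama2 with 23.4 and Lama5 with 14.7. Fat was led by Lama4 with 79.8, then Lamc1 with 30.4 and Lamb1 with 19.0, and endothelium by Lamb2 with 24.2, then Hspg2 with 16.7 and Lama4 with 16.4. Macrophages had Nid2 first with 11.4 CPM per kb. Per kb of whole gene, introns included, Lamb2 with its short introns came first in muscle (13.7), endothelium (13.6), fibroblasts (13.5) and macrophages (2.92), and Lama2 in fibroblasts was 2.71. The order between genes thus depends on the length used.

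Single nuclei rarely held a UMI of every chain. After each nucleus was thinned to 1000 UMIs, at least 1 member was found in 53.5% and 57.2% of Female and Male endothelial nuclei, 92.1% and 93.1% of fibroblasts, 72.9% and 74.0% of fat nuclei, 20.7% and 20.4% of macrophages and 85.9% and 86.4% of muscle nuclei. An alpha, a beta and a gamma chain together were found in 4.80% and 7.03% of fibroblasts, 1.37% and 4.397% of fat nuclei, 0.401% and 0.346% of endothelial nuclei and 1.95% and 1.76% of muscle nuclei, and in 0 of 439 and 0 of 622 macrophages. With 0 seen, shares of up to 0.683% and 0.482% of macrophages with all 3 kinds detected at 1000 UMIs are possible by counting error alone, which sets no limit on the share that express them. Without thinning, Lama4 had a UMI in 94.5% and 91.7% of fat nuclei and 78.6% and 72.0% of muscle nuclei, and Lama2 in 88.0% and 85.3% of fibroblasts and 53.3% and 43.9% of muscle nuclei. Macrophages, where both genes were low, had Lama4 UMIs in 8.73% and 9.63% and Lama2 UMIs in 8.32% and 6.03% of nuclei. The median depth was 6875 and 6979 UMIs in fat nuclei, 2392 and 2682 in macrophages and 3844 and 3016 in muscle. All members together took 0.35% and 0.353% of the UMIs of fibroblasts, 0.219% and 0.218% of muscle, 0.146% and 0.166% of fat, 0.0934% and 0.102% of endothelium and 0.0463% and 0.0371% of macrophages.

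Within the classes the members were described by subgroups, named by the pair of marker genes with the larger UMI sum. The pairs came from clusters of these same nuclei, so no test was made between subgroups. In fibroblasts Lama2 on one side and Nid1, Lamc1 and Lamb1 on the other were highest in different subgroups. Lama2 had 3215 and 3755 CPM in Female and Male Pex5l+Lsamp fibroblasts, 1736 and 1891 in C7+Scara5 fibroblasts and 1287 and 1156 in Pi16+Dact2 fibroblasts. Nid1 ran the other way, with 229 and 239 CPM in Pex5l+Lsamp, 347 and 417 in C7+Scara5 and 694 and 834 in Pi16+Dact2 fibroblasts. Pi16 marks fibroblasts of the outer adventitia in mouse arteries. Lamc1 had 329 and 290.2 CPM in Pex5l+Lsamp, 389 and 460.2 in C7+Scara5 and 584 and 772 in Pi16+Dact2 fibroblasts. Lamb1 had 32.1 and 72.2 CPM in Pex5l+Lsamp, 62.5 and 55.6 in C7+Scara5 and 124 and 130.4 in Pi16+Dact2 fibroblasts. Both libraries put Pi16+Dact2 first for Nid1, Lamc1 and Lamb1 and last for Lama2. The pericyte markers Rgs5, Abcc9 and Kcnj8 moved with Lama2 in part, with 931 and 629 CPM in Pex5l+Lsamp, 923 and 814 in C7+Scara5 and 385 and 311 in Pi16+Dact2 fibroblasts, and their part in the Lama2 order was not tested. Lama5 was 70.6 and 92.2 CPM in fibroblasts of no subgroup and at most 15.7 CPM in these 3 subgroups. The mesothelial markers Msln, Upk3b and Wt1 summed to 930.1 and 1524 CPM in the nuclei of no subgroup and at most 53.2 CPM in the 3 subgroups. The Tfap2b+Chrm2 subgroup had 21 Female and 4 Male nuclei and is not described.

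Muscle had 1 subgroup that stood apart. In Lrrtm3+Adamtsl1 nuclei, 706 Female and 551 Male, Lama2 had 1189 and 1111 CPM, against 386 and 311 CPM in Pdzrn4+Sphkap and 282 and 257 CPM in Ptprz1+Actn2 nuclei. Lama4 had 417 and 448 CPM in Lrrtm3+Adamtsl1 nuclei, 778 and 716 CPM in Pdzrn4+Sphkap and 915 and 893 CPM in Ptprz1+Actn2 nuclei. The 3 fibroblast markers of the rule summed to 281 and 441 CPM in Lrrtm3+Adamtsl1, 73.4 and 78.4 in Pdzrn4+Sphkap and 47.5 and 80.0 in Ptprz1+Actn2 nuclei. The pericyte markers summed to 702 and 677 CPM in Lrrtm3+Adamtsl1, 407 and 356 in Pdzrn4+Sphkap and 381 and 322 in Ptprz1+Actn2 nuclei, and the mesothelial markers to 97.1 and 186, 10.3 and 22.0 and 3.96 and 10.1 CPM. These 3 lists were highest where Lama2 was highest. The fibroblast genes Lum, Col1a1, Col1a2 and Col3a1, which the rule did not use, were not, with 677 and 640.2 CPM in Lrrtm3+Adamtsl1, 789 and 581 in Pdzrn4+Sphkap and 817 and 646 in Ptprz1+Actn2 nuclei. The part of other cells' RNA in the Lama2 level was not tested. Hspg2 had 305 and 336 CPM in Lrrtm3+Adamtsl1 nuclei, 381 and 441 in Pdzrn4+Sphkap and 426 and 465 in Ptprz1+Actn2 nuclei, and Nid1 43.5 and 46.5 CPM in Lrrtm3+Adamtsl1, 14.4 and 19.3 in Pdzrn4+Sphkap and 15.4 and 15.5 in Ptprz1+Actn2 nuclei. Lama2 and Nid1, both highest in fibroblasts, thus stood above the other muscle subgroups here, and Lama4 and Hspg2 below them, in both libraries. The muscle markers of the rule were also lowest here, with 5560 and 5876 CPM. They had 7525 and 8026 CPM in Pdzrn4+Sphkap and 9180 and 10144 CPM in Ptprz1+Actn2 nuclei. The part of a lower share of muscle RNA in the Lama4 and Hspg2 levels was not tested.

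In endothelium a few lymphatic nuclei stood apart for Lama4. The Prox1+Mmrn1 nuclei, which carry the lymphatic markers, numbered 25 and 48. Lama4 had 1801 and 1444 CPM there (139 and 246 UMIs) and between 180.6 and 235.5 CPM in the Nrg1+Emcn, Ankrd33b+Fgfr3 and Chrm3+Cyp4b1 nuclei. Lamb1 was 129.5 and 106 CPM in Prox1+Mmrn1 nuclei, from 10 and 18 UMIs. Lama3 was 69.3 and 79.4 CPM in Ankrd33b+Fgfr3 nuclei, 52.4 and 41.0 in Chrm3+Cyp4b1 and 37.9 and 32.2 in Nrg1+Emcn nuclei. Lama5 kept that order, with 81.5 and 136 CPM in Ankrd33b+Fgfr3, 69.5 and 86.0 in Chrm3+Cyp4b1 and 45.2 and 59.5 in Nrg1+Emcn nuclei. Nid2 was 19.2 and 15.6 CPM in Nrg1+Emcn nuclei and 3.80 and 3.57 CPM in Ankrd33b+Fgfr3 nuclei.

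Fat nuclei with the pair Cyp2e1+Retn, where Retn encodes the white fat hormone resistin, were set beside those with the thermogenic pair Ucp1+Cidea. Lama4 had 1224 and 1030.3 CPM in Cyp2e1+Retn nuclei and 845 and 879.9 CPM in Ucp1+Cidea nuclei, Female and Male. Lamc1 had 283 and 330.4 CPM in the Cyp2e1+Retn and 189 and 228 CPM in the Ucp1+Cidea nuclei, and Hspg2 71.0 and 69.2 CPM in the Cyp2e1+Retn and 44.8 and 36.7 CPM in the Ucp1+Cidea nuclei. These 3 members had their larger values in the Cyp2e1+Retn nuclei in both libraries. Nid1 had 21.7 and 41.8 CPM in Cyp2e1+Retn and 3.08 and 13.5 CPM in Ucp1+Cidea nuclei, and the fibroblast markers of the rule summed to 23.9 and 71.7 CPM in Cyp2e1+Retn and 22.3 and 45.4 CPM in Ucp1+Cidea nuclei, and their part in the Nid1 level was not tested. Lamb1 had 157 and 255 CPM in Cyp2e1+Retn and 122 and 226 CPM in Ucp1+Cidea nuclei, so that the libraries differed more than the subgroups.

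**Figure D2:**
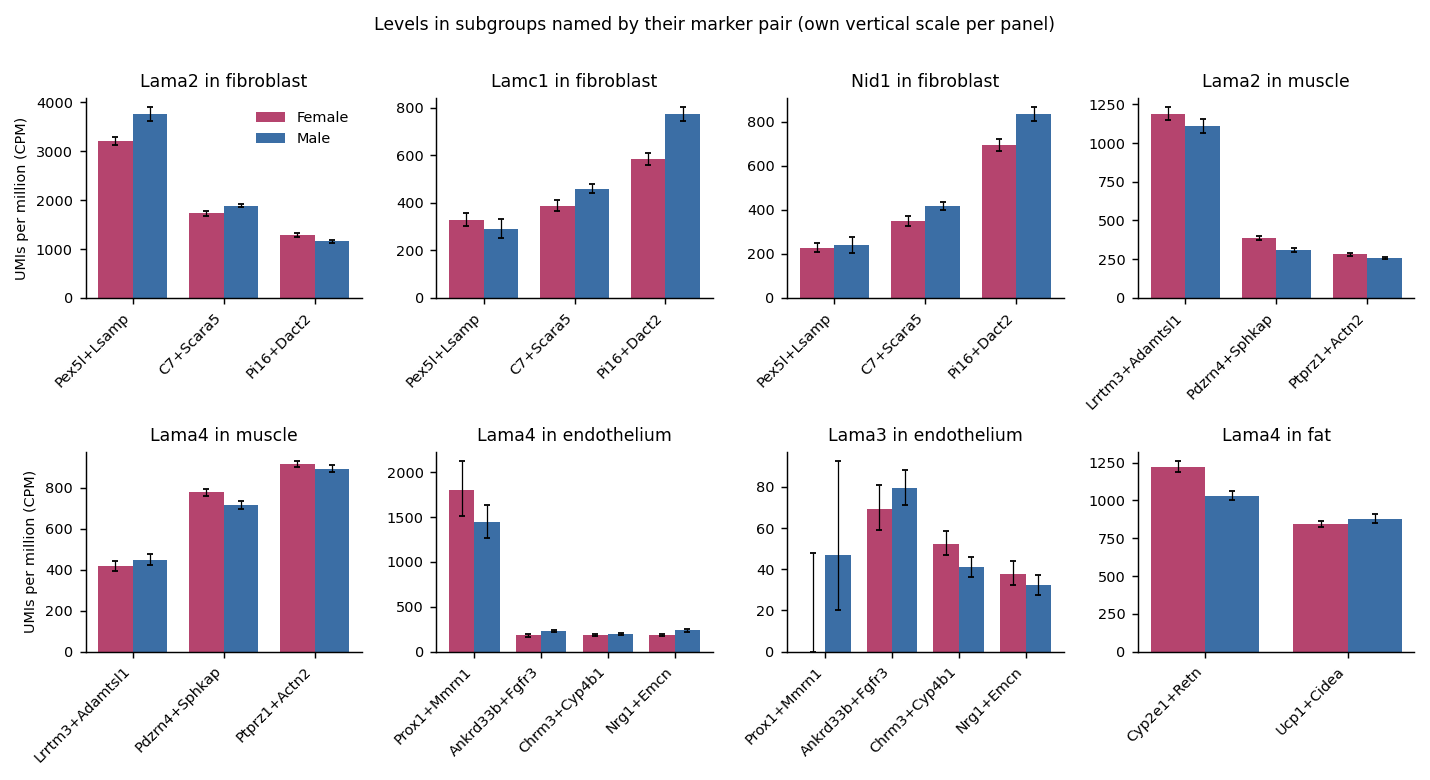
CPM (vertical axis, linear from 0, own scale per panel) of 5 members in subgroups of fibroblast, muscle, endothelial and fat nuclei, Female left and Male right, with 95% Poisson intervals of the counts. Lama2 peaked in Pex5l+Lsamp fibroblasts and Lrrtm3+Adamtsl1 muscle nuclei, Nid1 and Lamc1 in Pi16+Dact2 fibroblasts, and Lama4 in Prox1+Mmrn1 endothelium.

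The reporter asks whether nuclei of the Wnt1-Cre lineage differ from others of the same class. Nuclei with GFP UMIs and no tdTomato UMI numbered 2420 and 2196 in Female and Male muscle, and tdTomato-only nuclei 1729 and 1430. A further 3434 and 3462 muscle nuclei had UMIs of neither reporter and 541 and 568 of both, and these were left out. The absence of a UMI does not show the absence of a label. Endothelium, which is not known to come from the neural crest, had 271 and 406 GFP-only nuclei and 2206 and 2799 tdTomato-only nuclei. Whether those GFP-only endothelial nuclei carry free RNA, a second nucleus or the label itself was not tested. In muscle, 1 of 10 members was called higher in GFP-only nuclei and 0 lower in edgeR (1 higher and 2 lower at an unadjusted p under 0.05), beside 0.989% and 1.17% of 14556 genes. It was Lama2, with 451 and 398 CPM in Female and Male GFP-only nuclei, against 273 and 259.9 CPM in tdTomato-only nuclei (log2 fold 0.67, SE 0.04, adjusted p 1.9e-04 in edgeR with library as a block). Each GFP-only value lay above both tdTomato-only values. The reporter fit rests on 4 sums only. The fibroblast markers of the rule summed to 80.3 and 108 CPM in GFP-only and 67.5 and 119 CPM in tdTomato-only muscle nuclei. In nuclei whose muscle sum was at least 4 times the next the Lama2 log2 fold was 0.67, as large as over all muscle nuclei. Without the block the fold was 0.67 and the call was lost (adjusted p 0.20), and over the alternatives with a test the adjusted p ran from 3.1e-48 to 0.43. The pericyte markers summed to 445 and 384 CPM in GFP-only and 405 and 329 CPM in tdTomato-only muscle nuclei, and their part in the Lama2 difference was not tested. Neither Lama4 nor Lama5 was called in the same nuclei. Lama4 had 796 and 811 CPM in GFP-only and 844 and 834 CPM in tdTomato-only nuclei (log2 fold -0.07, adjusted p 0.53), and Lama5 156 and 172 CPM in GFP-only and 163 and 195 CPM in tdTomato-only nuclei (log2 fold -0.13, adjusted p 0.33). Nid2 had 5.34 and 6.96 CPM in GFP-only and 7.89 and 10.9 CPM in tdTomato-only nuclei (log2 fold -0.60, adjusted p 0.24). For Lama3, Lamb1, Lamb2, Lamc1, Hspg2 and Nid1 the log2 folds lay between -0.17 for Lama3 and 0.27 for Lamb1, with none called.

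The muscle subgroups differed in reporter share, and Lama2 moved with them. Of nuclei with 1 reporter, 85.3% and 83.9% were GFP-only in Female and Male Lrrtm3+Adamtsl1 muscle, where Lama2 is high, against 57.7% and 61.3% in Pdzrn4+Sphkap and 54.5% and 58.2% in Ptprz1+Actn2 muscle. Within Lrrtm3+Adamtsl1 nuclei Lama2 had 1097 and 1276 CPM in GFP-only nuclei, against 405 and 704 CPM in the 43 and 37 tdTomato-only nuclei. In Pdzrn4+Sphkap nuclei it had 462 and 392 CPM in GFP-only and 283 and 225 CPM in tdTomato-only nuclei, and the edgeR fold there was 0.73 on the log2 scale (adjusted p 6.1e-06). In Ptprz1+Actn2 nuclei the values were 287 and 268 CPM in GFP-only and 252 and 251 CPM in tdTomato-only nuclei, and the call was lost (log2 fold 0.14, adjusted p 0.43). Leaving out the Lrrtm3+Adamtsl1 nuclei alone, an alternative chosen after seeing the data, gave a log2 fold of 0.45 (adjusted p 9.4e-07). The difference of the fold between subgroups was not tested.

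Fibroblasts had 415 and 450 GFP-only and 285 and 321 tdTomato-only nuclei in Female and Male. Another 1422 and 1634 fibroblast nuclei had UMIs of neither reporter and 59 and 72 of both, and these were left out. In fibroblasts 9 of 10 members passed the filter on low counts, Lama3 being too low. In edgeR, 0 were called higher in GFP-only nuclei and 1 lower (1 and 2 at an unadjusted p under 0.05), beside 1.21% and 3.09% of 10838 genes. Lama5 was lower, with 11.3 and 12.5 CPM in Female and Male GFP-only fibroblasts, against 19.6 and 42.8 CPM in tdTomato-only fibroblasts (log2 fold -1.35, SE 0.32, adjusted p 0.012 in edgeR). Its counts were 21 and 25 UMIs in GFP-only and 25 and 64 in tdTomato-only nuclei. The mesothelial markers moved with it, with 39.8 and 70.3 CPM in GFP-only and 248 and 572 CPM in tdTomato-only fibroblasts. Lama5 was 85.1 and 54.4 CPM in the 8 and 19 GFP-only nuclei with UMIs of these genes, and 115 and 116 CPM in the 24 and 74 such tdTomato-only nuclei. In nuclei with none, it was 8.88 and 10.02 CPM in GFP-only and 8.75 and 14.8 CPM in tdTomato-only nuclei, and the call was lost (log2 fold -0.29, adjusted p 0.95). It was also lost in DESeq2 (adjusted p 0.9999) and without the block (adjusted p 0.25), and over all alternatives with a test the adjusted p ran from 9.4e-04 to 0.9999. Lama2 did not differ past the threshold in fibroblasts, with 1809 and 1660.5 CPM in GFP-only and 1741 and 1414 CPM in tdTomato-only nuclei (log2 fold 0.16, adjusted p 0.75). The pericyte markers were 762 and 630.1 CPM in GFP-only and 413 and 289 CPM in tdTomato-only fibroblasts. The log2 folds of Lama4, Lamb1, Lamb2, Lamc1, Hspg2, Nid1 and Nid2, none of them called, lay between -0.62 for Nid2 and 0.35 for Lamb2.

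The reporter difference itself was compared between fibroblasts and muscle in 1 edgeR fit with an interaction term, and no member passed the threshold (3 at an unadjusted p under 0.05), beside 0.776% of 15333 genes. Lama2 differed by -0.50 on the log2 scale (fibroblast minus muscle, adjusted p 0.083) and Lama5 by -1.26 (adjusted p 0.084).

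**Figure D3:**
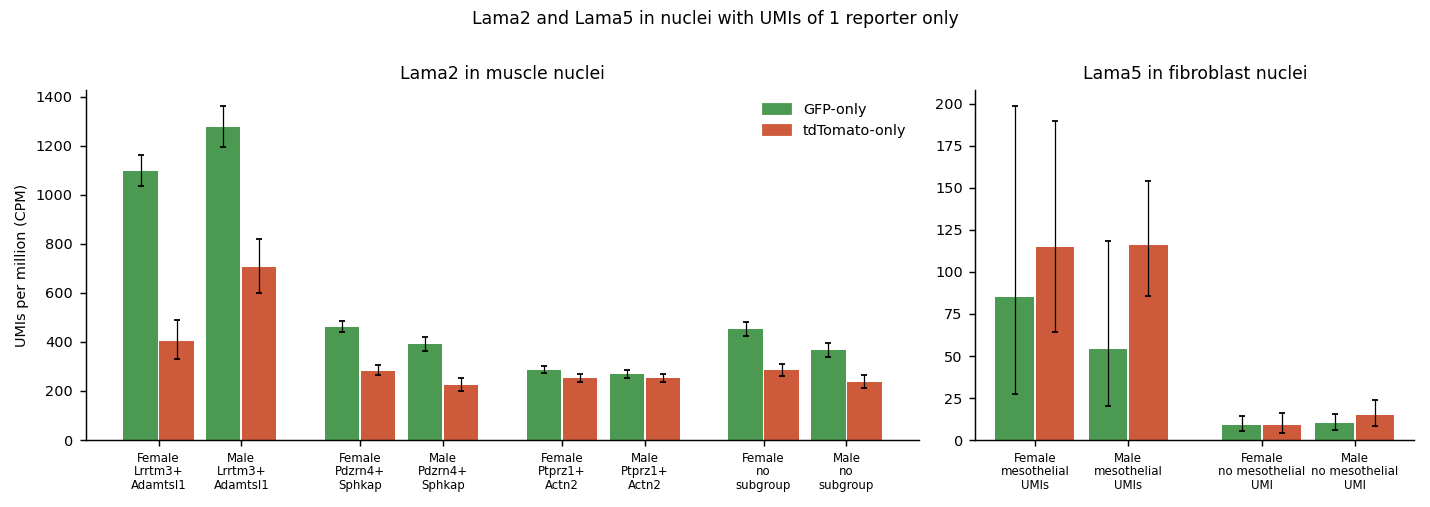
CPM (vertical axis, linear from 0) in GFP-only (left of each pair) and tdTomato-only nuclei of the Female and Male libraries: Lama2 in the muscle subgroups and in muscle nuclei of no subgroup (left panel), and Lama5 in fibroblast nuclei with and without mesothelial UMIs (right panel), with 95% Poisson intervals of the counts. The Lama2 bars of GFP-only nuclei stand above those of tdTomato-only nuclei in every subgroup and library, closest in Ptprz1+Actn2 muscle, and the Lama5 bars are tallest where mesothelial UMIs were present.

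Between the Female and Male libraries the members were mostly close. A 2-fold rule, applied after adding 5 CPM, was used for members that reached 50 UMIs in the pair of libraries and 20 CPM in one of them. No member reached 2-fold in endothelium, fibroblasts or muscle, where 8, 9 and 7 of 10 members passed the filter and 0.412%, 0.905% and 0.375% of the genes that passed reached it. In muscle the ratio of Female to Male CPM of those members lay between 0.861 for Nid1 and 1.17 for Lama2. Of 7 members that passed in fat, 1 was 2-fold apart (beside 2.02% of genes), and the median log2 ratio was -0.45 over those members and -0.053 over all genes. The count was 2 with a pseudocount of 1 CPM or a class sum of 5 or more, and 0 with 20 CPM or under the 4-times rule. Nid1 had 112 Female and 277 Male UMIs, a ratio of 0.352 (95% interval 0.28 to 0.44). Its 10.1 and 28.7 CPM were below the fibroblast level in both libraries. Lama2 had a ratio of 0.445 (95% interval 0.376 to 0.525), from 19.4 and 43.6 CPM, and Lamb1 of 0.557 (95% interval 0.522 to 0.594), from 135 and 242 CPM.

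The fibroblast markers of the rule summed to 24.0 and 60.9 CPM in Female and Male fat nuclei, and their part in the fat differences was not tested. In fat nuclei whose largest marker sum was at least 4 times the next, Lama2 was 10.7 and 17.2 CPM, Nid1 10.1 and 25.3 CPM and Lamb1 137 and 247 CPM. The Lamb1 values differed as much between the libraries as before. The Female fat library held more Ucp1+Cidea nuclei, 909 against 493 Cyp2e1+Retn nuclei, while the Male library held 605 Ucp1+Cidea and 676 Cyp2e1+Retn nuclei. Lamb1 was 157 CPM in Female and 255 CPM in Male Cyp2e1+Retn nuclei, and 122 and 226 CPM in Ucp1+Cidea nuclei. The part of the subgroup numbers in the fat differences was not tested. In macrophages Lama2 was 2.302 (95% interval 1.87 to 2.85) times as high in the Female as in the Male library, 1 of 6 members that passed, beside 1.94% of genes. Under the 4-times rule it was 95.3 and 27.1 CPM, a log2 ratio of 1.64 after adding 5 CPM, against 1.14 without the rule. The fibroblast markers there were 102 and 57.5 CPM, and their part in the Lama2 difference was not tested. The 227 Female and 151 Male Lama2 UMIs lay in 40 and 42 macrophage nuclei. Called doublets made up 9.98% and 11.2% of the class. Leaving them out took the mean macrophage Lama2 level of the libraries from 109 to 33.6 CPM, and their part in the difference was not tested.

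**Figure D4:**
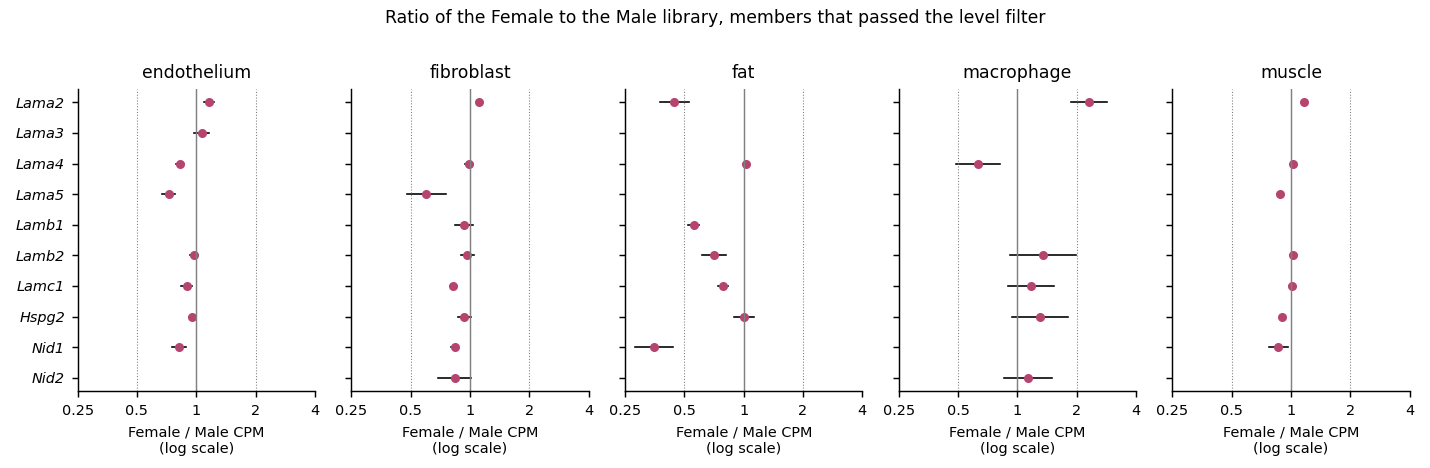
Ratio of Female to Male CPM (horizontal axis, log scale) of the members that passed the level filter in each class, with 95% intervals that cover counting error only. Solid line, equal levels; dotted lines, 2-fold. In fat, Nid1, Lama2 and Lamb1 lie furthest to the left, with Nid1 and Lama2 beyond 2-fold, and Lama2 in macrophages lies beyond 2-fold on the right. The ratios are drawn without the added 5 CPM of the 2-fold rule, under which Lama2 in fat did not reach 2-fold.

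Of the remaining laminin chains, Lama1, the embryonic alpha chain, had 34 UMIs in all classes together and was not tested. Lamc3, a gamma chain found with Lama2, had 22.2 and 30.6 CPM in endothelium, 54.5 and 60.9 in fibroblasts, 10.01 and 9.21 in fat and 11.4 and 10.1 in macrophages, against 78.3 and 93.3 in muscle, and it was lower than muscle in each (edgeR log2 folds -1.79, -0.70, -3.27 and -3.18). Lamb3, a partner of Lama3 in epithelial laminin, was 40.6 and 29.8 CPM in fat, against 1.27 and 1.34 CPM in muscle (log2 fold 4.62, adjusted p 1.1e-07). It was 2.298 and 2.63 CPM in endothelium, where Lama3 was highest. Against muscle the tested chains among these came to 1 higher and 1 lower in endothelium (all genes 22.9% and 21.9%), 0 higher and 1 lower in fibroblasts (all genes 20.2% and 17.9%), 1 higher and 1 lower in fat (all genes 30.6% and 31.7%) and 0 higher and 1 lower in macrophages (all genes 20.1% and 23.2%). In muscle, Lamc3, the 1 chain of the list tested there, was also called higher in GFP-only than in tdTomato-only nuclei (edgeR log2 fold 0.85, adjusted p 4.7e-04). Of all 14556 genes tested there, 0.989% were called higher. Lamc3 was not followed by muscle subgroup, and these subgroups differed in reporter share.

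Of 20 other basement membrane genes, 19 were tested. Against muscle there were 4 higher and 8 lower in endothelium, 8 higher and 10 lower in fibroblasts, 3 higher and 14 lower in fat and 0 higher and 16 lower in macrophages. The median log2 folds of the list were -0.38, -1.14, -1.76 and -2.61, where those of all genes stand with the members above. Of all genes tested, 22.9% and 21.9% were higher and lower in endothelium, 20.2% and 17.9% in fibroblasts, 30.6% and 31.7% in fat and 20.1% and 23.2% in macrophages. Npnt, a ligand of integrin alpha 8, was 20.5 and 26.5 CPM in endothelium and 10.05 and 14.2 in fibroblasts, against 375 and 513 in muscle. Col4a6, of the alpha 5 and alpha 6 collagen IV network of smooth muscle, was 74.7 and 73.7 CPM in endothelium and 17.9 and 16.4 in fat, against 1151 and 1009 in muscle. Col15a1 and Col18a1, the multiplexin collagens, were also lower than muscle in endothelium (log2 folds -4.32 and -3.69). Smoc2, a calcium-binding matricellular protein, was higher in fibroblasts, with 367 and 324 CPM, against 11.7 and 13.6 CPM in muscle (log2 fold 4.65), and so was Egflam, the dystroglycan ligand pikachurin, with 46.3 and 37.5 CPM, against 2.82 and 2.87 CPM (log2 fold 3.75). Between GFP-only and tdTomato-only muscle nuclei, 2 of 18 tested were higher and 2 lower, beside 0.989% and 1.17% of all genes. Ntn4, a netrin that binds laminin gamma 1, and the collagen IV chain Col4a3 were lower in GFP-only nuclei (edgeR log2 folds -0.71 and -0.43) and Npnt and Smoc1 higher (0.22 and 0.22). In fibroblasts 0 of 17 were higher and 1 lower in edgeR (3 and 2 at an unadjusted p under 0.05), beside 1.21% and 3.09% of all genes. Fras1, of the epithelial Fraser complex, was lower in GFP-only fibroblasts (log2 fold -2.12), the contrast in which the mesothelial markers moved as given above, and their part was not tested.

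The 16 genes of laminin receptors and their complex were all tested, with 2 higher and 11 lower than muscle in endothelium, 2 higher and 11 lower in fibroblasts, 1 higher and 13 lower in fat and 1 higher and 13 lower in macrophages. All genes had 22.9% and 21.9% higher and lower in endothelium, 20.2% and 17.9% in fibroblasts, 30.6% and 31.7% in fat and 20.1% and 23.2% in macrophages. The median log2 folds of the receptor genes were -0.56, -1.35, -1.30 and -2.10 in that order. In endothelium the largest fold was that of Itgb4, the beta chain of the integrin that binds laminins at hemidesmosomes, with 241 and 240.4 CPM, against 6.48 and 10.5 CPM in muscle (log2 fold 4.79, adjusted p 1.0e-06). Dmd, the dystrophin that ties dystroglycan to the cytoskeleton, had 583 and 678 CPM in endothelium, 1361 and 1316 in fibroblasts, 196 and 241 in fat and 504 and 653 in macrophages, against 12749 and 13677 CPM in muscle. Itga7, a muscle laminin receptor, was 6.21 and 6.27 CPM in fibroblasts and 4.06 and 6.73 in endothelium, against 107 and 113 in muscle, and Sgca, alpha-sarcoglycan, 1.24 and 0.895 CPM in fibroblasts and 1.60 and 1.76 in endothelium, against 30.0 and 26.6 CPM in muscle. The 1 higher in fat was Dag1, dystroglycan itself, with 492 and 451 CPM in fat, against 182 and 206 CPM in muscle, and the 1 higher in macrophages was Itga6, an integrin alpha chain that binds laminin, with 74.6 and 20.2 CPM, against 6.34 and 7.61 CPM in muscle, both named after their values were seen. In fat the largest deficits after Dmd were those of Sgca, Bcam and Itga3 (log2 folds -5.31, -4.45 and -3.56). None of the 16 was called between GFP-only and tdTomato-only muscle nuclei in edgeR (1 higher and 2 lower at an unadjusted p under 0.05), beside 0.989% and 1.17% of all genes called higher and lower. In fibroblasts, where 1.21% and 3.09% of all genes were called higher and lower, 0 of 13 tested were higher and 2 lower in edgeR (0 and 2 at an unadjusted p under 0.05). Itga3 and Bcam, both of which bind laminin alpha 5, were lower in GFP-only fibroblasts (edgeR log2 folds -2.50 and -1.85, adjusted p 1.0e-05 and 1.9e-06), the contrast in which mesothelial markers and Lama5 moved.

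Dystroglycan binds laminin through a glycan, and 7 of the enzymes that build it were tested. There were 2 higher and 2 lower than muscle in endothelium, 2 higher and 1 lower in fibroblasts, 3 higher and 2 lower in fat and 0 higher and 4 lower in macrophages, and the median log2 folds were 0.08, -0.10, -0.17 and -0.77. With 7 genes these counts lie near the shares of all genes, which were 22.9% and 21.9% in endothelium, 20.2% and 17.9% in fibroblasts, 30.6% and 31.7% in fat and 20.1% and 23.2% in macrophages, apart from macrophages, and are no result about the list. B4gat1, a glucuronyltransferase of this pathway, was higher in endothelium (log2 fold 1.59) and in fibroblasts (1.06), at 11.3 and 13.7 CPM in endothelium, against 3.54 and 4.28 CPM in muscle. In fat, Large2, a glycosyltransferase that extends the glycan, and Pomt1, which adds the first mannose, were higher (log2 folds 2.52 and 1.31).

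Genes with the most similar pattern were ranked by Pearson r of log2(CPM + 5) over the 10 sums of class and library and are given as a description. For each member the closest 3 were picked from 11684 genes, and the 10 sums are 5 classes in each of the libraries. For Lama3 these were Nrxn3, Elovl7 and Ocln, with r from 0.975 to 0.981, and for Lama5 Ttll7, Actn1 and Bik (0.986 to 0.989). For Lama2 they were Eri3, Chrna7 and Glipr2 (0.984 to 0.986), for Lama4 Lzts2, Prkaa2 and Tmem110 (0.979 to 0.992), for Lamb1 Itih5, Dio2 and H6pd (0.987 to 0.995) and for Lamb2 Tcaf1, Ccdc149 and Hmgn3 (0.983 to 0.991). Lamc1 was closest to Fam19a5, Ebf1 and Prelp (0.975 to 0.982), Hspg2 to Ranbp17, Adamts1 and Atoh8 (0.982 to 0.986), Nid1 to Plekha4, Htra4 and Necab3 (0.976 to 0.985) and Nid2 to Rap1b, Tbc1d9b and Rab11fip5 (0.987 to 0.991). Among the members, r was 0.93 between Hspg2 and Lamb2, 0.90 between Hspg2 and Lama5, 0.76 between Lama2 and Nid1, 0.13 between the nidogens and -0.15 between the beta chains. The points share their library and depth. No member was among the closest 3 genes of another.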

How the data were processed

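Nuclei of the Female and Male pools were deposited as 1 set of counts each, treated here as 1 library. The authors deposited raw UMI counts per gene and barcode, made with Cell Ranger 7.0.0 per the file headers. The submitters' processing notes also name GRCm38, STAR and Seurat 4.4.0, while strand, intron setting and annotation were not given in the sources used here.

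From the counts, barcodes with 300 or more genes were classed by 3 markers per class, and UMIs were summed per class and library. Levels are CPM, the UMIs of a gene per 1000000 summed UMIs, with exact 95% Poisson intervals, which cover counting error only. Shares of nuclei were also taken after thinning to 1000 UMIs. Tests used edgeR 4.0.16 on genes with 50 or more UMIs in all (quasi-likelihood F, TMM, library as a block, two-sided, Benjamini-Hochberg, adjusted p under 0.05), with R 4.3.3. The code was tested on simulated data. The block rests on the library, in which all classes and both reporters were prepared together. Alternatives were DESeq2 1.42.0, other scaling and filters, no block, stricter class and reporter rules, removal of scrublet doublets and leaving out a library.

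All 10 members were followed in every comparison, those that were not called partly as ranges, and from each other list up to 4 genes with the largest fold past the threshold. The members, lists and subgroup markers were chosen with earlier results of these data known. Sequences are from RefSeq (GRCm38.p6), and 6 of 10 members matched. Some genes of the other lists are not reported here.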

Additional observations from a re-analysis of the deposited data

Results flagged for a closer look

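Nuclei that the class rule left out gave values above those of every class in both libraries for Lama2 and Lama5, among sets of at least 50 nuclei per library, though for Lama5 the excess lay within counting error. Of these nuclei, 118 Female and 92 Male had their largest sum in the pericyte markers Rgs5, Abcc9 and Kcnj8, and Lama2 was 2646 and 2249 CPM in them, above every class of the comparisons, fibroblasts included at 1832 and 1641 CPM. The Pex5l+Lsamp subgroup of fibroblasts described above had a higher Lama2 level than these nuclei in both libraries. In the nuclei with pericyte markers Lama4 was 263 and 187 CPM and Nid1 189.8 and 112 CPM.

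Lama5 was 176 and 184 CPM in 176 Female and 273 Male nuclei of no class whose largest sum was of the mesothelial markers Msln, Upk3b and Wt1. These values rest on 115 and 190 UMIs, and their 95% Poisson intervals of 145 to 211 and 159 to 212 CPM hold the muscle levels of 157 and 178 CPM, while Lama2 was 15.3 and 40.6 CPM there. These nuclei entered no comparison and no test.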

How the results depend on the processing

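The counts of members called against muscle stayed within 1.5 times the values given under every alternative with a test: other scaling factors, DESeq2, no filter, no block, stricter class rules and removal of doublets. Of the other results, 496 tested folds kept their direction and side of the threshold, 7 calls were lost and 6 gained. Of folds with a library left out, which have no test, 107 kept their direction. Of values without a test, 319 stayed within their counting interval (ratios between libraries) or the SD of the libraries (levels) and 91 moved further. In muscle the single member higher in GFP-only nuclei became 0 without the replicate block and in Ptprz1+Actn2 nuclei only. The block gave Lama2 an adjusted p of 1.9e-04 in edgeR, against 0.20 without it. In fibroblasts the single lower member, Lama5, became 0 in DESeq2, without the block, with a class sum of 5 or more, with 2 or more reporter UMIs and in nuclei with 0 mesothelial UMIs. The cause was not tested. Leave-one-out folds of these calls ran over 0.61 to 0.72 for Lama2 and -1.69 to -0.77 for Lama5. In fat the count of members 2-fold apart between libraries was 2 with a pseudocount of 1 CPM or a class sum of 5 or more, and 0 with 20 CPM or a largest sum at least 4 times the next.

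Signs turned only for folds that were not called. Against muscle in fat, Lamc1 was -0.047 without the filter and Nid1 0.25 with the 4-times rule and 0.36 without doublets. In macrophages Lama3 was -0.0098 with a sum of 5 or more, and Lamb1 0.0049 with the 4-times rule and 0.11 without doublets. Between reporters in Ptprz1+Actn2 muscle, Lama4 was 0.033, Lamb2 -0.0092, Lamc1 0.0019 and Nid2 0.039, and Lamb2 was -0.056 in Pdzrn4+Sphkap muscle. In fibroblasts Hspg2 was 0.032 with 2 or more reporter UMIs and Lama2 -0.062 with 0 mesothelial UMIs. Nid1 there was -0.012 by library size, -0.0011 in DESeq2, -0.084 with a sum of 5 or more, -0.12 with the 4-times rule, -0.0039 without doublets and -0.19 with 0 mesothelial UMIs.

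With 1 library left out no test remains, and the folds of these genes ran over -0.10 to 0.18 for Lamc1 and -0.89 to 0.31 for Nid1 in fat, and -1.12 to 1.59 for Lama3 and -0.80 to 0.045 for Lamb1 in macrophages. Between reporters in muscle they ran over -0.43 to 0.11 for Lama3, -0.071 to 0.53 for Lamb1, -0.0041 to 0.042 for Lamb2 and -0.19 to 0.091 for Nid1. In fibroblasts they ran over -0.39 to 0.11 for Lamb1, -0.29 to 0.14 for Lamc1 and -0.27 to 0.28 for Nid1. Depth limits Lama3, Nid2 and Lamb1 outside their highest classes, where a level rests on few UMIs.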

Other observations

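Lymphatic nuclei outside the classes had a Lama4 level near that of the Prox1+Mmrn1 endothelial subgroup. In 13 Female and 31 Male nuclei of no class whose largest marker sum was of Prox1, Mmrn1 and Flt4, Lama4 was 1984 and 1381 CPM, above every class, and Nid2 132 and 127 CPM from 4 and 7 UMIs. GFP-only endothelial nuclei, 271 and 406 in number and not tested, had 304 and 127 CPM of Lama2, against 76.6 and 67.4 CPM in tdTomato-only endothelial nuclei. Over all endothelial nuclei the mean Lama2 level of the libraries was 98.7 CPM. It was 49.9 CPM without called doublets and 46.8 CPM under the 4-times rule. The part of doublets and of other cells' RNA in the reporter difference was not tested.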
